A study of Mus musculus with 6 samples.

Results

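The immediate early genes Fos, Fosb, Jun, Junb, Jund, Egr1, Egr2, Atf3, Ier2 and Dusp1 were read out in outer hair cells, which amplify sound in the cochlea, after their sorting from mouse organs of Corti at E18.5. They were chosen by symbol, 10 of the 23337 symbols that were counted, and all 10 were found. The 3 Insm1-KO libraries held 9259736, 7705177 and 9748629 counts, and the 3 Insm1-Het libraries held 11738214, 10721902 and 12427039. Both genotypes carried a GFP-Cre allele at Insm1, whose fluorescence was the sorting gate, and Insm1-Het animals served as the controls, so no library came from animals with wild-type Insm1. Which part of Insm1 is removed in Insm1-KO animals, and whether a library stands for a single animal or a pool, is not in the labels. They give neither a dissociation protocol nor its duration, and no unsorted or undissociated sample was analysed here. Levels present in the animal and levels reached between dissection and lysis therefore cannot be told apart. Insm1 itself was at 78.7, 60.3 and 18.7 CPM (read counts brought to a common library size, with TMM factors) in Insm1-KO and 109.3, 116 and 69.2 CPM in Insm1-Het libraries; with the genotypes overlapping (adjusted p = 0.938 by edgeR with Benjamini-Hochberg adjustment), it checks the labels only in part. Insm1-KO replicate 3 stood apart across all genes, with Spearman correlations to the other libraries of 0.81 to 0.83, against 0.86 to 0.90 among the others.

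Immediate early genes are transcribed within minutes of a stimulus, without a need for new protein synthesis. Kinases of the MAP kinase pathways activate serum response factor with its Elk partners at CArG boxes and CREB at cyclic AMP response elements, and the genes so induced encode short-lived transcription factors and feedback regulators. Fos and Jun proteins pair through leucine zippers to form the factor AP-1, Egr proteins bind GC-rich sites through zinc fingers, and Dusp1 removes phosphate from MAP kinases. Enzymatic dissociation and sorting are known to induce these genes in many tissues, and their level is often read as a gauge of that handling.

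The promoters of 4 members are shown as examples of windows that hold letters of these response elements: Fos and Fosb, whose levels are compared with each other below, Egr2 for its CArG box and Dusp1 for its full cyclic AMP response element. Windows run from 250 bases before to 50 bases after an annotated start and were taken from RefSeq for GRCm38.p6; 8 of the 10 members had such a window in use here, with 12 windows in all because Egr2 has several annotated starts. Capitals mark TGACG on either strand, the core of the cyclic AMP response element, as well as the CArG box, the TATAAA box of Fos and the Egr site GCGNGGGCG of Fosb. Fos is at chr12:85473640-85473939 on the plus strand, Fosb at chr7:19309996-19310295 on the minus strand, Egr2 at chr10:67537619-67537918 on the plus strand and Dusp1 at chr17:26508423-26508722 on the minus strand.
Fos: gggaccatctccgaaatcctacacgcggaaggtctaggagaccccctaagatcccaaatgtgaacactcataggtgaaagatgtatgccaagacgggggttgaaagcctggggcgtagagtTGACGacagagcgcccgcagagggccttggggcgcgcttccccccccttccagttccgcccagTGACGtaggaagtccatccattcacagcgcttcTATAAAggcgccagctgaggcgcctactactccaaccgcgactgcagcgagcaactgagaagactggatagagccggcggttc
Fosb: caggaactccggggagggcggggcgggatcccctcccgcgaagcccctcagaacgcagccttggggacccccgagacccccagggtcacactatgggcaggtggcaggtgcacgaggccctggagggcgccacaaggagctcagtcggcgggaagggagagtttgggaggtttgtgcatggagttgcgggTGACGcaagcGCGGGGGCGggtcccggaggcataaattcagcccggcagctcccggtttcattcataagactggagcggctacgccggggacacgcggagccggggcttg
Egr2: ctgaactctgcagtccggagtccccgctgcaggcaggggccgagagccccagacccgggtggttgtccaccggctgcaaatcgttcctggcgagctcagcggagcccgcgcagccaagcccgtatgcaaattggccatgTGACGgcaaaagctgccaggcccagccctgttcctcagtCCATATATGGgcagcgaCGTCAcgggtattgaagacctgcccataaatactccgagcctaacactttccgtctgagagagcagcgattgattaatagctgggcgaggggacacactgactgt
Dusp1: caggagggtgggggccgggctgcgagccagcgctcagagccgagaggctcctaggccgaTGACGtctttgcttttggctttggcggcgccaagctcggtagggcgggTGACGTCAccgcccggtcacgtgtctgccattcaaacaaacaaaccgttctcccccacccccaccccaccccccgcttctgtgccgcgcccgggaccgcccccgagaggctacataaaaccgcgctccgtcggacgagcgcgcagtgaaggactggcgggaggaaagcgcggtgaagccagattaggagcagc

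TGACG, searched on both strands, was present in windows of 6 of the 8 genes, Atf3, Dusp1, Egr2, Fos, Fosb and Junb, and in 20.8% of all 32851 windows of the same length. The Egr2 windows starting at 67537619, 67537620 and 67537680 overlap and share letters, so genes and not windows are counted. Those starting at 67535249 and 67537316 overlap no other. Egr2 thus had more than 1 separate window in which a motif could occur, while the shares of all windows are per single window. The full palindrome TGACGTCA, which contains TGACG on each strand, was present in the window of Dusp1, from 143 to 136 bases before the start, and in 1.79% of all windows. The CArG box was present in 1 of the 8 genes, Egr2, in the window shown from 72 to 63 bases before the start, and in 1.63% of all windows. The separate Egr2 window starting at 67537316 held a different CArG box, CCTTTTTTGG. In Fos the TGACG letters lay from 129 to 125 and from 66 to 62 bases before the start. The AP-1 site TGANTCA was in 0 of the 8 genes' windows and in 7.81% of all windows, and the Egr site was in the Fosb window and in 5.55% of all windows. TATAAA was in the windows of Fos and Junb and in 13.6% of all windows. In Fos it lay from 33 to 28 bases before the start, whereas in Junb it lay on bases 1 to 6 from the start itself. The windows of Jun and Jund held none of the motifs searched. However, the Jund window, chr8:70697489-70697788, ends before the Jund gene start at 70698949. The sequence at that start was not searched. These matches describe the letters of the windows only. Bases farther than 250 before an annotated start were not searched, and Egr1 and Ier2 had no window in use here. A motif missing from a window may therefore lie outside it.

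Fos, the partner of Jun proteins in AP-1, was counted at a high level in every library. Fos lies on chromosome 12 from 85473890 to 85477273 (GRCm38, plus strand), with 3 to 4 exons per annotated transcript. It was at 146, 95.2 and 169 CPM in Insm1-KO replicates 1, 2 and 3, against 127, 90.2 and 141 CPM in Insm1-Het replicates 1, 2 and 3. The lowest library of each genotype was replicate 2 and the genotypes overlapped. The means were 137 ± 37.7 CPM in Insm1-KO and 119 ± 26.2 CPM in Insm1-Het libraries (SD, n = 3 each), with a log2 fold change of 0.19 and a 95% interval from -0.52 to 0.90.

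Fosb, the close relative of Fos, lies on chromosome 7 from 19302696 to 19310051 on the minus strand. It was at 197, 201 and 92.7 CPM in the Insm1-KO libraries, against 107, 86.3 and 167 CPM in the Insm1-Het libraries. Insm1-KO replicate 3, the library highest in Fos, was thus among the lowest in Fosb. On the log2 scale the fold change came to 0.45, with 95% bounds of -0.34 and 1.23. The ratio of Fosb to Fos counts within a library, which does not depend on scaling, was 1.35, 2.11 and 0.549 in the Insm1-KO libraries and 0.839, 0.956 and 1.18 in the Insm1-Het libraries. The Insm1-KO ratios lay on both sides of the Insm1-Het range, and the standard deviation was 0.783 in Insm1-KO and 0.175 in Insm1-Het libraries (n = 3 each).

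**Figure D1:**
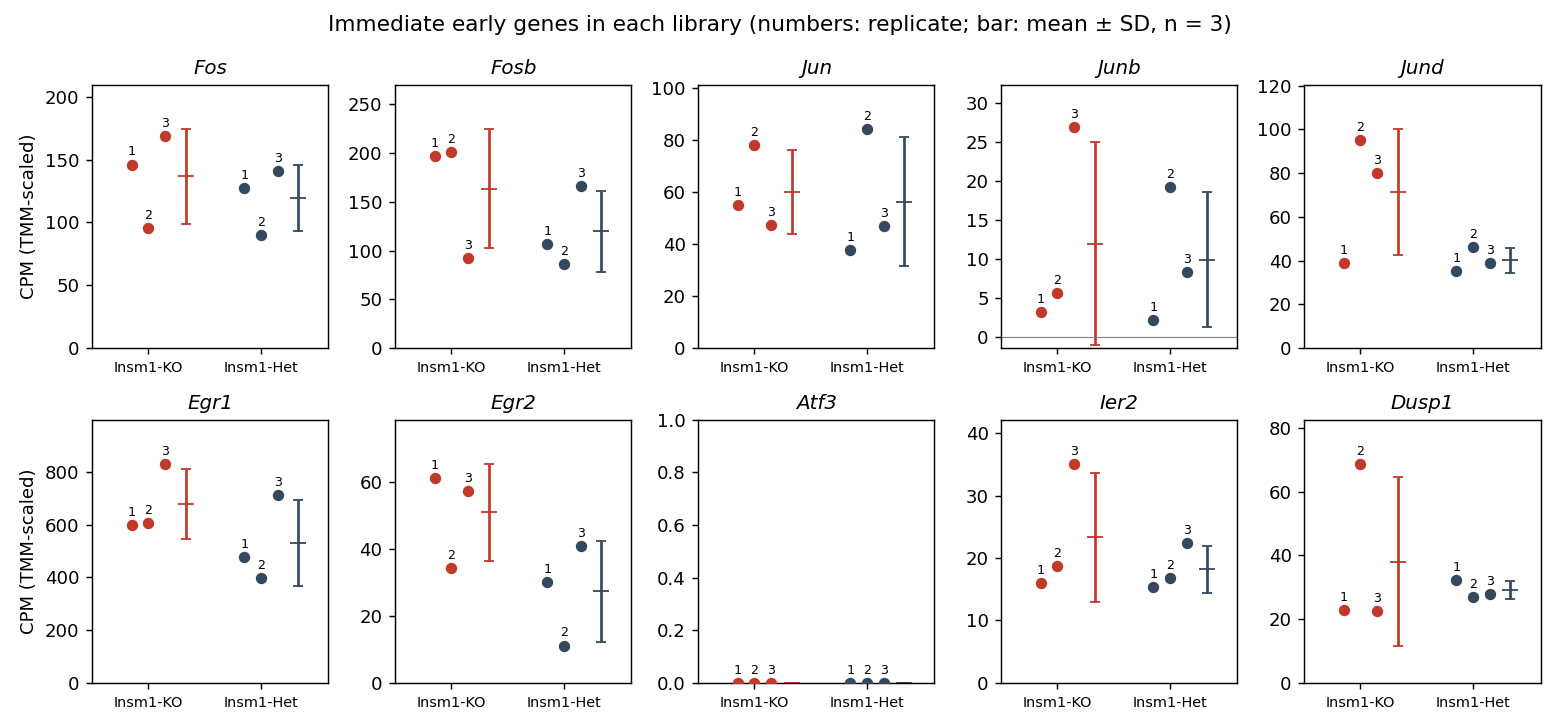
CPM of the 10 immediate early genes in each library, with Insm1-KO on the left and Insm1-Het on the right of each panel. Points are libraries numbered by replicate and bars are mean ± SD (n = 3). The genotypes overlap in every panel; Dusp1 reached 68.9 CPM in Insm1-KO replicate 2, and Atf3 was at 0 in every library.

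Of the Jun genes, Jund differed most between the genotype means. Jund, which is expressed in most resting cells and is the least inducible of the family, was at 39.1, 94.95 and 79.9 CPM in the Insm1-KO libraries, against 35.3, 46.4 and 38.7 CPM in the Insm1-Het libraries. Insm1-KO replicates 2 and 3 lay above every Insm1-Het library, while Insm1-KO replicate 1 lay inside their range. The means were 71.3 ± 28.9 CPM in Insm1-KO and 40.1 ± 5.68 CPM in Insm1-Het libraries (SD, n = 3 each), and the 95% interval of the log2 fold change ran from -0.18 to 1.84 around 0.83. Jund lies on chromosome 8 from 70698949 to 70700616, in 1 exon, and a noncoding gene on the opposite strand, Gm11175, shares 877 bases with it. The strand setting of the counting is not given in the sources used here, so the reads of the pair cannot be told apart.

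Jun, the founding AP-1 subunit, was at 54.9, 78.3 and 47.2 CPM in the Insm1-KO libraries, against 37.7, 84.4 and 46.9 CPM in the Insm1-Het libraries. The highest library was an Insm1-Het library, and the difference on the log2 scale was 0.09, with 95% bounds of -0.91 and 1.10. Jun (chromosome 4, 95049034 to 95052222) is a gene of 1 exon that shares 232 bases with Junos on the opposite strand. Junb, which can hold back Jun activity, was the scarcest counted member, at 3.20, 5.61 and 26.9 CPM in the Insm1-KO libraries, against 2.12, 19.2 and 8.30 CPM in the Insm1-Het libraries. These values rest on 30, 43 and 242 counts in Insm1-KO and on 26, 205 and 105 counts in Insm1-Het libraries, and its highest library stood 12.7-fold above its lowest. Its log2 fold change of 0.27 had the widest 95% interval of the 9 tested genes, from -2.13 to 2.68, and the value was -1.15 without Insm1-KO replicate 3. Junb (chromosome 8, 84974484 to 84978718) shares 173 bases with Prdx2 on the opposite strand.

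Egr1, the zinc-finger factor most often used as a marker of recent stimulation, was the most abundant member. It was at 599, 607 and 833 CPM in the Insm1-KO libraries, against 479, 399 and 714 CPM in the Insm1-Het libraries, and replicate 3 was the highest of each genotype. Insm1-Het replicate 3 lay above Insm1-KO replicates 1 and 2, so the genotypes overlapped. On the log2 scale Insm1-KO minus Insm1-Het came to 0.36, with 95% bounds of -0.17 and 0.88, that is from 0.89-fold to 1.84-fold, the narrowest interval among the tested members. Egr1 lies on chromosome 18.

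Egr2, the relative of Egr1 that also controls hindbrain patterning and myelination, had the largest log2 fold change of the 9 genes, 0.90, with a 95% interval from -0.37 to 2.16. It was at 61.2, 34.2 and 57.2 CPM in the Insm1-KO libraries, against 30.0, 11.1 and 40.7 CPM in the Insm1-Het libraries. Insm1-KO replicate 2 lay below Insm1-Het replicate 3, and the other Insm1-KO libraries lay above all Insm1-Het libraries. Within libraries, the ratio of Egr2 to Egr1 counts was 0.102, 0.0563 and 0.0687 in Insm1-KO and 0.0625, 0.0280 and 0.0570 in Insm1-Het libraries, again with overlap. Egr2 lies on chromosome 10 from 67535475 to 67542188 on the plus strand. Schwann cells also express Egr2. Of their markers, Erbb3, a neuregulin receptor named after its values were seen, was at 25.1, 2.48 and 34.2 CPM in Insm1-KO and 4.89, 1.22 and 0.948 CPM in Insm1-Het libraries. Like Egr2 it was highest in Insm1-KO replicates 1 and 3; its part in the Egr2 level was not tested.

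Ier2, a small nuclear protein of the early response, was at 16.0, 18.8 and 35.2 CPM in the Insm1-KO libraries, against 15.4, 16.8 and 22.4 CPM in the Insm1-Het libraries. Without Insm1-KO replicate 3 its log2 fold change of 0.36 became -0.056. Ier2 is a gene of 1 exon on chromosome 8, from 84661331 to 84662852. Dusp1, the MAP kinase phosphatase of the set, was at 23.0, 68.9 and 22.5 CPM in the Insm1-KO libraries, against 32.3, 26.9 and 27.98 CPM in the Insm1-Het libraries. A single library, Insm1-KO replicate 2, set the higher Insm1-KO mean, and the remaining Insm1-KO libraries lay below every Insm1-Het library. The log2 fold change of Dusp1 was 0.39 with all libraries (95% interval from -0.92 to 1.70) and -0.34 without Insm1-KO replicate 2. Dusp1 lies on chromosome 17 from 26505590 to 26562128 on the minus strand, and shares 11 bases with Ergic1 on the opposite strand.

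Atf3, a stress-induced repressor of the same leucine zipper class, had 0 counts in each of the 6 libraries. A count of 0 allows up to 3 counts per library, or between 0.320 and 0.391 CPM in the Insm1-KO libraries and between 0.237 and 0.281 CPM in the Insm1-Het libraries. This limit covers counting error only, since amplified reads are not independent molecules. Atf3 spans 191170296 to 191218039 on chromosome 1 with 4 to 5 exons per transcript, and 7689 of the 23337 symbols likewise had 0 counts in every library.

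Levels of different genes were compared as CPM per kilobase of merged exons, since longer transcripts collect more reads. On this scale Egr1 was at 152 ± 29.6 in Insm1-KO and 118 ± 36.5 in Insm1-Het libraries (SD, n = 3 each), above 98.6% of the tested genes and above every other member in all 6 libraries. Fos followed at 58.1 ± 16.0 in Insm1-KO and 50.8 ± 11.2 in Insm1-Het libraries, above 93.8% of tested genes. Jund came next by mean and lay below Fos in 5 of 6 libraries. The order then ran through Fosb, Jun, Ier2, Egr2 and Dusp1, and neighbours in it were not separated in every library: Jund was above Fosb in 4 of 6 libraries, Jun above Ier2 in 4 of 6 and Egr2 above Dusp1 in 3 of 6. Junb, at 5.18 ± 5.68 in Insm1-KO and 4.29 ± 3.76 in Insm1-Het libraries, lay below Dusp1 in 4 of 6 libraries and above 38.0% of tested genes. Atf3 was last. The other 8 counted members lay above 59.7% or more of the tested genes.

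The genotype contrast was tested across all 11714 genes that passed the filter on low counts, and 9 of the 10 members passed it, all but Atf3. With edgeR (quasi-likelihood F test, Benjamini-Hochberg adjustment), 0 of the 9 met the threshold of 0.05, where the share of all tested genes meeting it was 0%. Their adjusted p values ran from 0.938 for Jund to 0.996 for Jun and Junb. At an unadjusted p under 0.05 the count was also 0, against 5.34% of all tested genes, and it was 0 by DESeq2 and by limma-voom. In 0 of the 9 did all Insm1-KO libraries lie above all Insm1-Het libraries, against 5.08% of all tested genes, and in 0 did they all lie below, against 6.1%. With no statement of separate animals behind the libraries, these p-values measure library-to-library spread, which may be technical.

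All 9 log2 fold changes were above 0, against 50.9% of all tested genes, with a median of 0.36 against 0.02 over all tested genes. The members are not independent of each other, and the direction was not shared by every subset of libraries: 7 of the 9 were above 0 without Insm1-KO replicate 2, without Insm1-KO replicate 3 or without Insm1-Het replicate 1, and 8 without Insm1-Het replicate 3. The median without Insm1-KO replicate 3, the library least like the others across all genes, was 0.25. The intervals bound what these libraries could show: for Fos and Egr1 they reach no higher than 1.87-fold and 1.84-fold, while for Junb, Egr2, Jund, Ier2 and Dusp1 a change of more than 3-fold lies inside them.

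**Figure D2:**
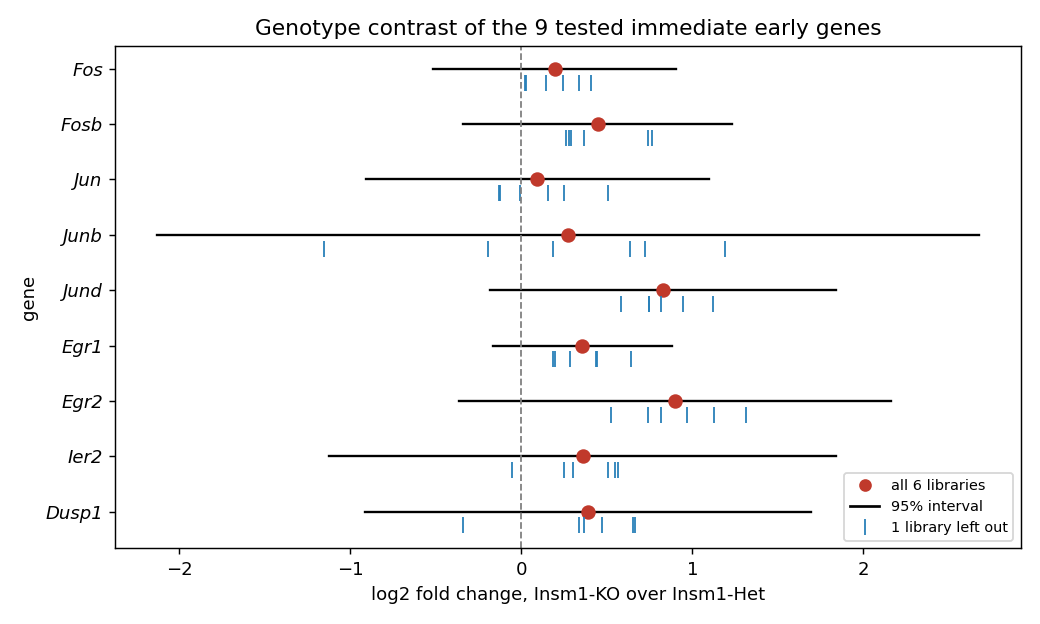
Log2 fold change, Insm1-KO over Insm1-Het, of the 9 tested immediate early genes (red points) with 95% intervals (black lines); blue ticks are the values with 1 library left out. Each interval crosses 0, and ticks of Jun, Junb, Ier2 and Dusp1 fall on both sides of it.

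Summed over the 10 members, the level was 1139, 1204 and 1363 CPM in the Insm1-KO libraries, against 866, 780 and 1206 CPM in the Insm1-Het libraries. Insm1-Het replicate 3 reached the Insm1-KO levels, and the means were 1235 ± 115 CPM in Insm1-KO and 951 ± 226 CPM in Insm1-Het libraries (SD, n = 3 each). Egr1 dominates this sum. Without it, in a sum chosen after the values were seen, the level was 540, 597 and 530 CPM in the Insm1-KO libraries and 387, 381 and 492 CPM in the Insm1-Het libraries. The genotypes did not overlap in this sum, whereas they overlapped in the sum of all 10. Among single genes, 11.2% of all tested genes had no overlap, in either direction. Neither sum was tested.

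The members did not share a single order of libraries. Insm1-KO replicate 3 was the highest library for Fos, Junb, Egr1 and Ier2, that is 44.4% of the tested members against 24.5% of all tested genes, but it was the lowest for Dusp1. Insm1-KO replicate 2 was the highest for Fosb, Jund and Dusp1, Insm1-KO replicate 1 for Egr2 and Insm1-Het replicate 2 for Jun. Insm1-Het replicate 1 was the lowest for Jun, Junb, Jund and Ier2, and Insm1-Het replicate 2 for Fos, Fosb, Egr1 and Egr2, each 44.4% of the tested members against 10.5% and 15.2% of all tested genes. The mean centred log2 level of the 9 members was -0.08, 0.25 and 0.42 in the Insm1-KO libraries and -0.44, -0.21 and 0.06 in the Insm1-Het libraries, so Insm1-KO replicate 1 lay below Insm1-Het replicate 3.

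**Figure D3:**
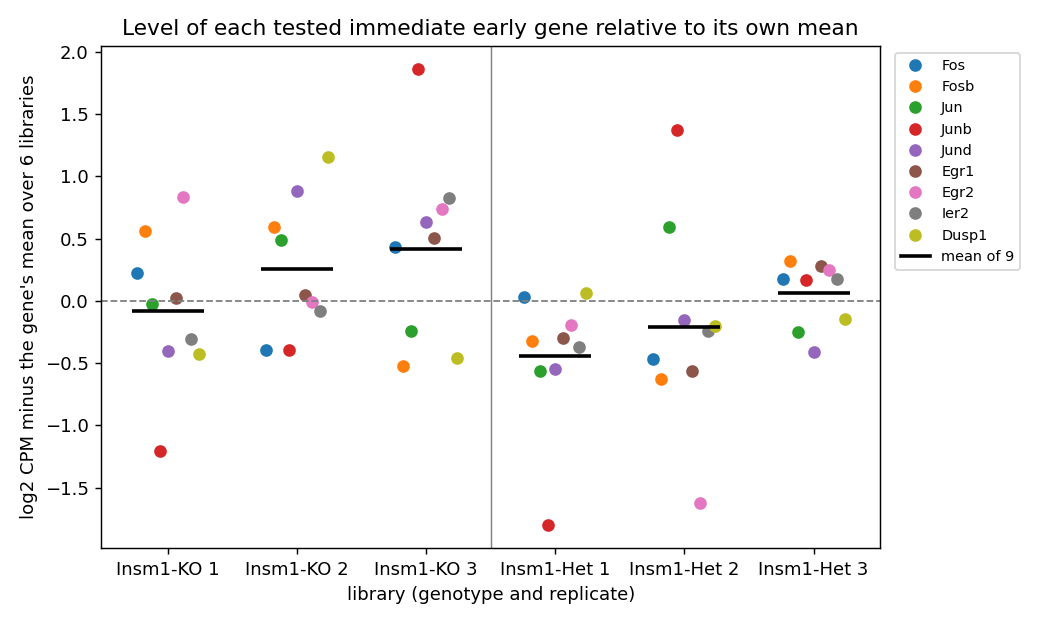
Log2 CPM of each tested immediate early gene minus its mean over the 6 libraries, by library, with Insm1-KO libraries on the left; black bars are the mean of the 9 genes. Junb spreads most, and the black bars run from -0.44 in Insm1-Het replicate 1 to 0.42 in Insm1-KO replicate 3.

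Among the 10319 other genes with a mean of at least 5 CPM, those whose centred log2 profile over the 6 libraries came closest to the mean profile of the 9 members were Lima1, Kif5b, Lmo4, App and Ahcyl1, with root-mean-square differences of 0.07, 0.08, 0.09, 0.09 and 0.10 log2 units. Lima1 encodes an actin-binding protein, Kif5b a kinesin motor, Lmo4 a LIM-only nuclear adaptor and App the amyloid precursor protein. Lima1, the closest, was at 805, 991 and 1065 CPM in the Insm1-KO libraries and 704, 711 and 911 CPM in the Insm1-Het libraries. App was at 796, 942 and 1108 CPM in the Insm1-KO libraries and 695, 727 and 791 CPM in the Insm1-Het libraries. The genotypes overlapped in Lima1, Kif5b and Lmo4. In App and Ahcyl1 all Insm1-KO libraries were higher, as in 5.08% of all tested genes. Of the members themselves, Egr1 came closest to their mean, at 0.20, and Junb was farthest, at 1.09 log2 units. These 5 genes are the closest of a large search over few libraries, and the likeness is a description only.

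Other markers in the libraries set the context of these levels. The general hair cell list was counted in full, with Myo6, an unconventional myosin, at 4849, 4946 and 5174 CPM in Insm1-KO and 4869, 5152 and 5210 CPM in Insm1-Het libraries, and every outer hair cell marker was counted in at least 1 library. The outer hair cell list summed to 809, 847 and 847 CPM in Insm1-KO and 1017, 885 and 835 CPM in Insm1-Het libraries. Inner hair cell markers, 9 of 9 counted, summed to 1120, 1410 and 1649 CPM in Insm1-KO and 1230, 990.5 and 943 CPM in Insm1-Het libraries. Most of this came from Otof, Nhlh1 and Rprm, with Brip1 adding 422 CPM in Insm1-KO replicate 3. Slc17a8 reached at most 1.92 CPM and Fgf8 at most 9.29 CPM, and Eomes had 1 count in all. Sums were not scaled for transcript length, so their sizes are not compared between lists. Supporting cell markers, 12 of 12 counted, summed to 1916, 2061 and 2700 CPM in Insm1-KO and 1699, 1939 and 2478 CPM in Insm1-Het libraries. Most of this came from Tectb and Prox1. As with the summed immediate early genes, Insm1-KO replicate 3 was highest and Insm1-Het replicate 3 next. The lowest library differed: Insm1-Het replicate 1 for these markers and Insm1-Het replicate 2 for the early genes. Of the 10 markers tested, 5 log2 fold changes lay above 0 and 5 below. Schwann cell and glial markers, with Foxd3 at 0 among 8, summed to 220, 233 and 238 CPM in Insm1-KO and 150, 194 and 273 CPM in Insm1-Het libraries, most of it from Cnp and Sox10. Immune markers, with Csf1r, Aif1 and Fcrls at 0 among 12, were carried by Laptm5, at 37.5, 41.0 and 136 CPM in Insm1-KO and 85.0, 108.5 and 121 CPM in Insm1-Het libraries, and by Cx3cr1 in Insm1-Het replicate 3 at 46.9 CPM; the remaining immune markers stayed under 3 CPM. Endothelial markers, 10 of 10 counted, reached at most 34.1 CPM in Insm1-KO and 39.7 CPM in Insm1-Het libraries. Mesenchymal markers, with Twist1 at 0 among 10, were carried mostly by Pdgfra. It was at 272, 334 and 175 CPM in Insm1-KO and 225, 282 and 349 CPM in Insm1-Het libraries. Pdgfrb and Lum, named after their values were seen, were also counted. Pdgfrb was at 25.9, 12.1 and 56.3 CPM in Insm1-KO and 19.5, 25.7 and 44.9 CPM in Insm1-Het libraries. Lum was at 5.02, 0 and 39.95 CPM in Insm1-KO and 9.61, 9.55 and 45.1 CPM in Insm1-Het libraries. Both were highest in replicate 3 of each genotype, as were the summed immediate early genes. Pdgfra was lowest in Insm1-KO replicate 3. The collagen genes Col1a1, Col1a2 and Col3a1 stayed under 18 CPM. The neuron list, with Th at 0 among 10, summed to 848, 1517 and 987 CPM in Insm1-KO and 894, 950 and 1072 CPM in Insm1-Het libraries, mostly from Nefl, Nefm and Snap25, with Tubb3 under 4 CPM. The erythroid list summed to at most 4.96 CPM. The part of these cells in the immediate early levels was not tested, and in bulk RNA fewer cells of a type and less RNA per cell cannot be told apart. All Insm1-KO libraries were also shallower than all Insm1-Het libraries, so depth and genotype cannot be told apart.

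Further members of the AP-1 family were uneven in level. Fosl1, Batf, Batf2 and Batf3, which pair with Jun proteins, were at 0 in all libraries, and of the 14 genes 7 could be tested. Atf2, a CREB-like partner of Jun, was at 175 ± 68.4 CPM in Insm1-KO and 144 ± 57.9 CPM in Insm1-Het libraries, and Atf4, the effector of the integrated stress response, at 131 ± 45.2 CPM in Insm1-KO and 87.4 ± 21.7 CPM in Insm1-Het libraries (SD, n = 3 each). Maff, a small Maf protein, was at 1.17, 10.2 and 3.23 CPM in the Insm1-KO libraries, against 0.163, 0 and 0.395 CPM in the Insm1-Het libraries, without overlap. Its log2 fold change of 4.60 (SE 1.96) rested on 125 counts in all and did not pass (adjusted p = 0.92 by edgeR with Benjamini-Hochberg adjustment). Of the 7 tested, 0 passed, 5 lay above 0, and the median log2 fold change was 0.29. Of the Egr and Nab genes, 2 of 4 could be tested and neither passed: Nab1, a corepressor of Egr proteins, at 216 ± 93.9 CPM in Insm1-KO and 212 ± 11.5 CPM in Insm1-Het libraries, and Egr3, under 6 CPM in every library.

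The list of 35 further immediate early genes, of which 27 could be tested, gave values on both sides of 0. In it 14 log2 fold changes were above 0 and 13 below, with a median of 0.02, and 0 passed the test over all genes. Btg2, an antiproliferative gene, was the most abundant, at 398 ± 59.2 CPM in Insm1-KO and 365 ± 24.8 CPM in Insm1-Het libraries, followed by Mcl1, a survival factor of the Bcl2 family, at 202 ± 24.6 CPM in Insm1-KO and 248.8 ± 67.4 CPM in Insm1-Het libraries (SD, n = 3 each). The smallest unadjusted p values belonged to lower values in Insm1-KO. Csrnp1, a nuclear protein induced by Axin, was at 2.67, 0.913 and 0.223 CPM in Insm1-KO and 15.6, 1.22 and 25.7 CPM in Insm1-Het libraries (log2 fold change -3.46, SE 1.43). Gadd45g, a stress sensor of cell cycle arrest, was at 20.3, 30.4 and 9.90 CPM in Insm1-KO and 58.2, 40.3 and 38.8 CPM in Insm1-Het libraries (log2 fold change -1.18, SE 0.60), and the genotypes did not overlap. Their adjusted p values were 0.92 and 0.938 by edgeR with Benjamini-Hochberg adjustment. Cyr61, a matrix protein named after its values were seen, was likewise lower in all Insm1-KO libraries, at 8.86, 2.87 and 9.90 CPM against 16.1, 20.1 and 19.0 CPM in Insm1-Het libraries. Genes lower in all Insm1-KO libraries were 2 of the 27, against 6.1% of all tested genes. Those higher in all Insm1-KO libraries were 0 of the 27, against 5.08% of all tested genes. Zfp36, also named after its values were seen, had a higher mean in Insm1-KO, with overlap. It was at 102, 42.4 and 108 CPM in Insm1-KO and 32.9, 43.1 and 61.8 CPM in Insm1-Het libraries.

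Several well-known early genes of this list were scarce in all libraries. Nr4a1, an orphan nuclear receptor, stayed below 11 CPM, Socs3, a cytokine signalling inhibitor, below 4 CPM, and Gadd45b below 1 CPM, and Ier3 had counts in Insm1-Het replicate 2 alone, at 13.7 CPM. Per1, a clock gene, stood out in Insm1-KO replicate 2 at 185 CPM, beside 28.8 and 42.6 CPM in Insm1-KO replicates 1 and 3, and 48.0, 35.4 and 80.4 CPM in the Insm1-Het libraries. Klf4, a Krüppel-like factor, was also highest there, at 93.5 CPM, the library in which Dusp1 was highest. These 6 genes were named after their values were seen.

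**Figure D4:**
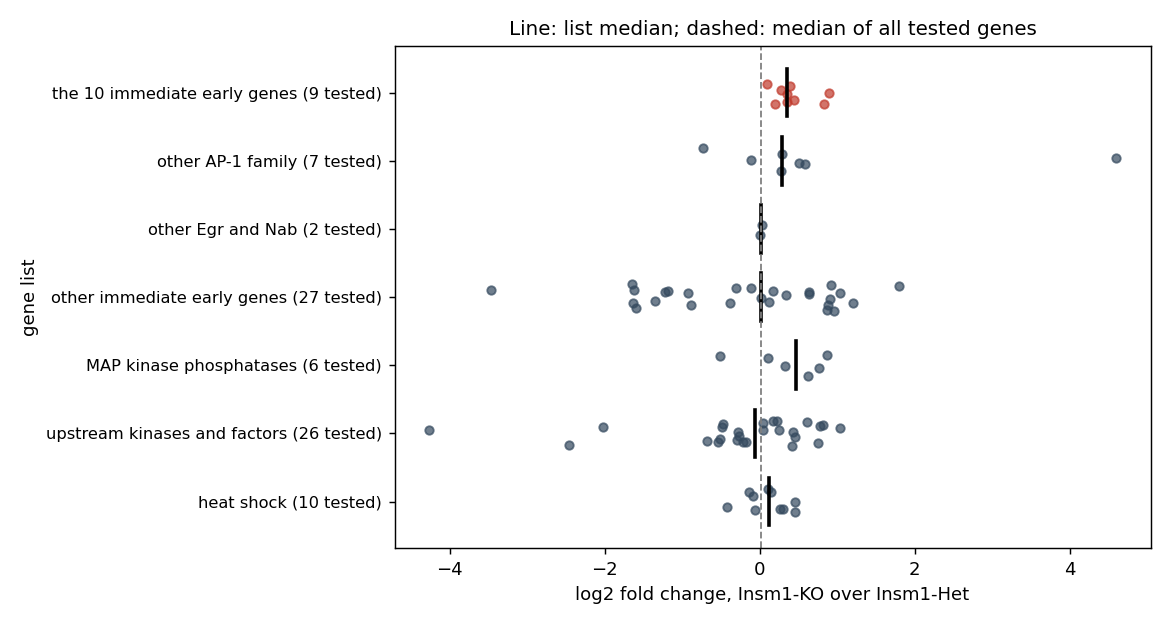
Log2 fold change, Insm1-KO over Insm1-Het, of each tested gene in the 10 immediate early genes (red) and in 6 related lists (dark); short vertical lines are list medians and the dashed line is the median of all tested genes. The red points all lie above 0, with a median of 0.36, while the 27 further immediate early genes spread from -3.46 to 1.80.

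Of the other MAP kinase phosphatases, 6 of 10 could be tested, 0 passed, 5 lay above 0 and the median log2 fold change was 0.48. Dusp14 was at 47.1, 86.5 and 208 CPM in Insm1-KO and 82.9, 62.5 and 55.5 CPM in Insm1-Het libraries, and Dusp7 at 25.3, 27.1 and 85.9 CPM in Insm1-KO and 25.7, 24.8 and 25.1 CPM in Insm1-Het libraries. In both, Insm1-KO replicate 3 alone lay far above the rest. Dusp16 was at 93.6 ± 18.6 CPM in Insm1-KO and 74.6 ± 34.2 CPM in Insm1-Het libraries (SD, n = 3 each).

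Of the 26 upstream kinases and factors, all were tested, 0 passed, 13 lay above 0 and 13 below, with a median of -0.06. Creb1, the cyclic AMP response element binding protein, was at 166, 149 and 173 CPM in Insm1-KO and 178, 225 and 183 CPM in Insm1-Het libraries. Rps6ka5, the kinase MSK1, which phosphorylates CREB and histone H3 at early genes, was at 9.29, 9.0 and 2.12 CPM in Insm1-KO and 25.3, 36.3 and 50.4 CPM in Insm1-Het libraries. The genotypes did not overlap, and the log2 fold change of -2.46 (SE 0.78) did not pass over all genes (adjusted p = 0.918 by edgeR with Benjamini-Hochberg adjustment). Mapk10, a neuronal Jun kinase, was at 0, 0 and 2.45 CPM in Insm1-KO and 6.76, 41.2 and 0.0790 CPM in Insm1-Het libraries, so that 2 Insm1-Het libraries carried its counts.

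Heat shock genes, another response to handling, gave 6 values above 0 and 4 below among 10 tested, with a median log2 fold change of 0.13, and 0 passed. Hsp90ab1, the constitutive chaperone, was at 3084 ± 415 CPM in Insm1-KO and 2864 ± 89.8 CPM in Insm1-Het libraries, and Hsp90aa1, its inducible relative, at 429 ± 64.2 CPM in Insm1-KO and 473 ± 31.8 CPM in Insm1-Het libraries (SD, n = 3 each). The co-chaperone Dnajb1 was at 134, 188 and 149.6 CPM in Insm1-KO and 106, 85.8 and 150.3 CPM in Insm1-Het libraries. Dnaja1 was lower in all Insm1-KO libraries, at 155, 151 and 102 CPM against 175, 157 and 216 CPM in Insm1-Het libraries. Hsph1, named after its values were seen, was higher in all Insm1-KO libraries. It was at 400, 471 and 518 CPM, against 376, 373 and 378 CPM in Insm1-Het libraries. Of the 10 tested, 1 thus lay higher and 1 lower in all Insm1-KO libraries, against 5.08% and 6.1% of all tested genes. Hspa1a and Hspb1 had 0 counts in every library, and Hspa1b stayed under 1 CPM. Hspa1a and Hspa1b are near-identical copies, so their counts depend on how reads that map to both were assigned. Over these 6 related lists edgeR found an unadjusted p under 0.05 for 3 of 78 tested genes, Maff, Csrnp1 and Rps6ka5, that is 3.85%, against 5.34% of all tested genes.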

How the data were processed

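RNA of sorted outer hair cells from 3 Insm1-KO and 3 Insm1-Het libraries was depleted of ribosomal RNA, primed with random hexamers and amplified, per the labels' protocols. The authors deposited raw read counts for each gene symbol. The submitters' processing notes name Trimmomatic, STAR and HTSeq and the build GRCm38 (mm10); versions, annotation, strand setting and the handling of multi-mapping reads are not stated there (not given in the sources used here).

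The filter was filterByExpr with genotype as group, a minimum count of 10 and a minimum total of 15; 11714 of 23337 genes passed, and those removed held 0.274% of counts. Libraries were scaled by TMM and compared with edgeR 4.0.16 (R 4.3.3), glmQLFit and glmQLFTest with default settings, genotype as the only term, and Benjamini-Hochberg adjustment over all tested genes at 0.05. SE was derived as |log2 fold change| over the root of F, and 95% intervals from it. CPM uses the library's total over the genes that passed the filter, times its TMM factor. Levels per length use merged exons of GENCODE M21 on GRCm38. Centred profiles used log2(CPM + 0.5), and the plot and means by library log2 CPM. DESeq2 1.42.0, limma-voom 3.58.1, 2 other scalings, 2 other filters, a replicate block and leaving out each library were the alternatives. Members, gene lists and tests were chosen with earlier results of these data known. From each related list the genes named are those past the threshold or, failing that, the 2 with the smallest p and the 2 most abundant; others are marked where named, apart from genes at 0 and overlapping neighbours, and 1 gene under this rule is not reported here. Sequences are from RefSeq.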

Additional observations from a re-analysis of the deposited data

How the results depend on the processing

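With each of the 13 alternatives 0 of the 9 tested members passed an adjusted p of 0.05. Over all tested genes the count, 0 by edgeR, was 45 by DESeq2 and 67 with no filter, which tested more genes, and 1 with the replicate block; it stayed 0 in the other 10 alternatives, and the cause of the differences was not tested. At an unadjusted p under 0.05 a member was found only in Jund without Insm1-KO replicate 1, Fosb without Insm1-KO replicate 3 and Egr1 without Insm1-Het replicate 3. Of 117 member values under alternatives, 110 kept their direction. Leaving out 1 library, the log2 fold change ran from -0.13 to 0.51 for Jun, from -1.15 to 1.19 for Junb, from -0.056 to 0.57 for Ier2 and from -0.34 to 0.67 for Dusp1, and the median of the members from 0.25 to 0.57. The 7 reversed values were -0.13 for Jun and -0.34 for Dusp1 without Insm1-KO replicate 2, -1.15 for Junb and -0.056 for Ier2 without Insm1-KO replicate 3, -0.13 for Jun and -0.20 for Junb without Insm1-Het replicate 1, and -0.011 for Jun without Insm1-Het replicate 3. The count of members above 0, chosen after the data were seen, was 9 under DESeq2, limma-voom, both scalings, both filters and the block, and 7 to 9 with 1 library left out. Same-numbered libraries did not visibly deviate together across genes (correlations of 0.0101, 0.0073 and 0.0144), and not every library resembled its own number best. With 3 libraries per genotype this cannot exclude a pairing by replicate number, and the labels state none. With the replicate block the members' median was 0.29. Depth sets the limit for Atf3, at 0 counts.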
